A study of Drosophila melanogaster and Drosophila simulans and Drosophila yakuba with 12 samples.

Results

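The members are the miRNAs of the testis-rich clusters of Drosophila, chosen by number alone: mir-959 to mir-964, mir-972 to mir-979, mir-982 to mir-985, mir-991, mir-992, mir-303 and mir-2498, with every copy and both arms. They make 22 miRNAs, on 41 of the 392 hairpins that the deposited files list for 3 species: 23 of 176 for D. melanogaster, 18 of 136 for D. simulans and 0 of 80 for D. yakuba. The 12 small-RNA libraries came from 10 RNA samples of whole bodies, taken at the onset of metamorphosis. No library was made from testis, so the tissue in the name could not be checked here.

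The D. melanogaster animals were of the Oregon-R strain, with 2 libraries of male larvae, 2 of male prepupae, 1 of female larvae and 1 of female prepupae. D. simulans (14021-0251.167) and D. yakuba (14021-0261.00) were sampled as males only, each with 1 library of larvae and 2 libraries of prepupae made from the same RNA. Larvae were wandering larvae collected 18 h before puparium formation, and prepupae were white prepupae of at most 1 h after it. No group carried a mutation, a transgene or a treatment.

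A microRNA is cut from one of the 2 arms of a hairpin transcript and pairs with target mRNAs mainly through its seed, bases 2 to 8 from the 5′ end. Clustered hairpins are often cut from a common primary transcript. In D. melanogaster the members are known for high expression in the testis, where the male germ line runs through meiosis, and for rapid change between species. The larval testis already holds germ cells and is far larger than the larval ovary, so whole males and females offer a coarse view of these miRNAs.

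Sequences of the arms that the results turn on are shown with the seed in capitals. The first 3 are the most read forms of arms with at least 20 reads in D. melanogaster, from the 2L cluster (miR-959-3p) and from X, and let-7, on 2L, is the annotated mature sequence, shown because miR-984-5p shares bases 2 to 7 of its seed.
miR-959-3p: uUGUCAUCggggguauuauga
miR-984-5p: uGAGGUAAauacgguuggaauuu
miR-985-3p: cAAAUGUUccaauggucgggca
let-7: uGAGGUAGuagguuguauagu

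The numbers fall into 5 loci rather than 3 clusters. Positions are as deposited, and the sources used here do not give their genome version. The 6 hairpins mir-959 to mir-964 lie at chr2L:5640940-5642201 on the plus strand, a span of 1.262 kb. The 8 hairpins mir-972 to mir-979 lie at chrX:19445185-19455964 on the plus strand. The third cluster of the rule is split: mir-982, mir-303, both copies of mir-983 and mir-984 lie at chrX:4259839-4262768 on the minus strand, mir-985 stands alone at chrX:16085287-16085372, and mir-991, mir-992 and mir-2498 lie within 697 bases on 2R. This last group begins 448 bases from mir-313, a member of the mir-310 cluster. By name in the BDGP6 annotation, mir-959 to mir-964 lie in an intron of DIP-theta, on the opposite strand. The mir-983 copies and mir-984 lie in an intron of CG3626, also on the opposite strand, and mir-978 and mir-979 opposite the 3′ UTR of Grip84. For the others no protein-coding gene overlapped the hairpin.

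Each value below is a number of reads, or a share of all miRNA reads of the library, with an exact Clopper-Pearson interval at the 95% level. Library totals ran from 1423 to 48209 reads, so most members sat near the limit of detection. Of the 22 miRNAs, 18 had at least 1 read, and mir-972, mir-973, mir-976 and mir-992 had none. All members together had 246 reads. Of these, 167 (67.9%) lay on 4 arms, miR-991-3p, miR-959-3p, miR-984-5p and miR-985-3p, and 11 arms had 5 or more reads. A read counted only if it matched a hairpin listed for its own species or, where none was listed, the D. melanogaster hairpin.

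**Figure D1:**
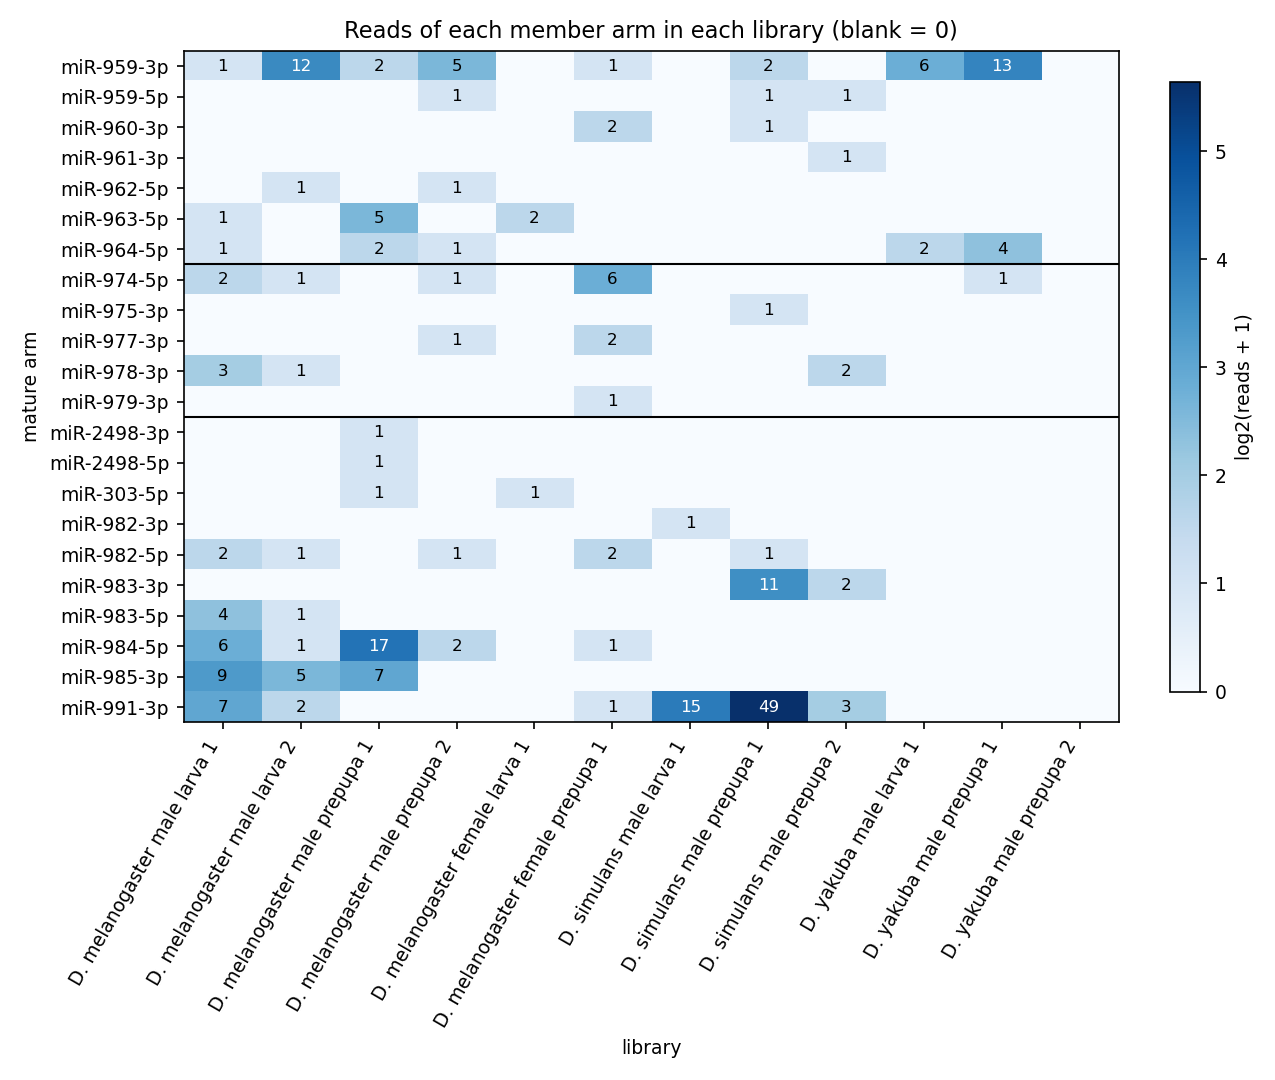
Reads of the 22 member arms with at least 1 read (rows, grouped by the clusters of the rule) in the 12 libraries (columns), printed in each cell and shaded by log2(reads + 1). Blank cells are 0. miR-984-5p and miR-985-3p have reads in D. melanogaster only, and most miR-991-3p reads lie in D. simulans.

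Males of D. melanogaster had more member reads than females. Male larva 1 and 2 held 36 of 29168 reads (0.123%) and 25 of 10113 (0.247%), and male prepupa 1 and 2 held 36 of 10629 (0.339%) and 13 of 9024 (0.144%). The female larva held 3 of 4721 (0.0635%) and the female prepupa 16 of 48209 (0.0332%). All 4 male libraries therefore lay above both female libraries. Summed, the share was 0.187% (0.153 to 0.225) in males and 0.0359% (0.0216 to 0.0561) in females, a ratio of 5.20 (3.18 to 8.96). Within prepupae the ratio was 7.51 (4.20 to 14.2). Within larvae it was 2.44 (0.798 to 12.2), which includes 1. Over both stages without the female prepupa it was 2.94. These intervals cover counting error only.

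Each sex carried its own 4-base index in the adapter: male larvae ACTG, male prepupae TGAC, the female larva CTGA and the female prepupa GACT. Sex and index cannot be told apart in these libraries. In whole animals, fewer cells of a type and less RNA per cell cannot be told apart either. Female replicates are lacking at each stage. Both female libraries and male larva 1 and male prepupa 1 were in library pool SDY1, and male larva 2 and male prepupa 2 in pool SDY3.

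**Figure D2:**
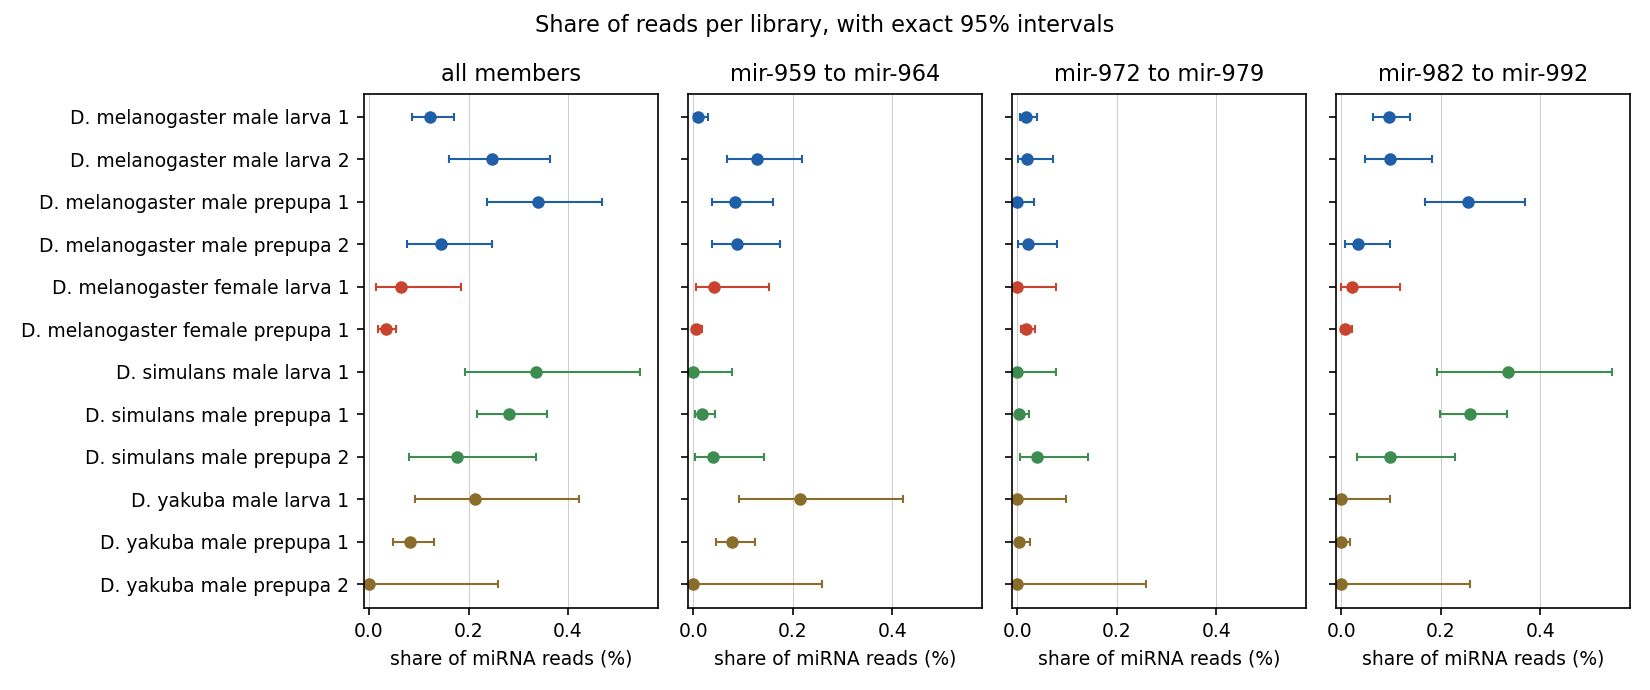
Share of miRNA reads (%) in each of the 12 libraries for all members and for the 3 clusters of the rule; points are the observed shares and bars exact 95% intervals. In all members the 4 D. melanogaster male libraries (blue) lie between 0.123% and 0.339%, above the 2 female libraries (red) at 0.0635% and 0.0332%.

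The observed male over female ratio varied between the clusters. For mir-959 to mir-964 males had 33 reads and females 5, a ratio of 5.93 (2.30 to 19.5), which was 1.32 without the female prepupa, and for mir-982 to mir-992 males had 68 and females 5, a ratio of 12.2 (4.99 to 38.8), which was 5.45 without the female prepupa. Within larvae alone both intervals include 1, at 0.961 (0.226 to 8.62) and 4.57 (0.772 to 185). For mir-972 to mir-979 males had 9 reads and females 9, a ratio of 0.898 (0.316 to 2.55). Without the female prepupa, the 9 male reads stood against 0 of 4721 reads in the female larva, so this low ratio rests on that library. A male excess was not detectable for this X-linked group at this depth. The difference between clusters was not tested.

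All 9 female reads of mir-972 to mir-979 came from the female prepupa: 6 of miR-974-5p, 2 of miR-977-3p and 1 of miR-979-3p. miR-974-5p had 2 and 1 reads in male larva 1 and 2, and 0 and 1 in male prepupa 1 and 2. Its highest count was thus in a female library, which was also the deepest of all 12.

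In the third cluster each locus had a higher share in males than in females over both stages. The group of mir-982, mir-303, mir-983 and mir-984 had 36 male and 4 female reads, a ratio of 8.08 (2.90 to 31.3). mir-985 had 21 male reads and none in females. This is 6.29-fold higher when the females are set at 3 counts over both libraries, the floor used for every count of 0. The exact interval of its ratio begins at 4.68. The 2R group had 11 male reads and 1 female read, a ratio of 9.88 (1.44 to 425). Within larvae alone each interval includes 1. The ratio was 1.80 (0.277 to 75.9) for the group of mir-982, mir-303, mir-983 and mir-984. For mir-985 and the 2R group, with 0 reads in the female larva, the intervals begin at 0.399 and 0.237. The neighbouring mir-310 cluster, which is also known from the male germ line, had 81 reads (0.137%) in males and 10 (0.0189%) in females. Its libraries ran from 0.0789% to 0.237% in males and from 0 to 0.0207% in females.

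**Figure D3:**
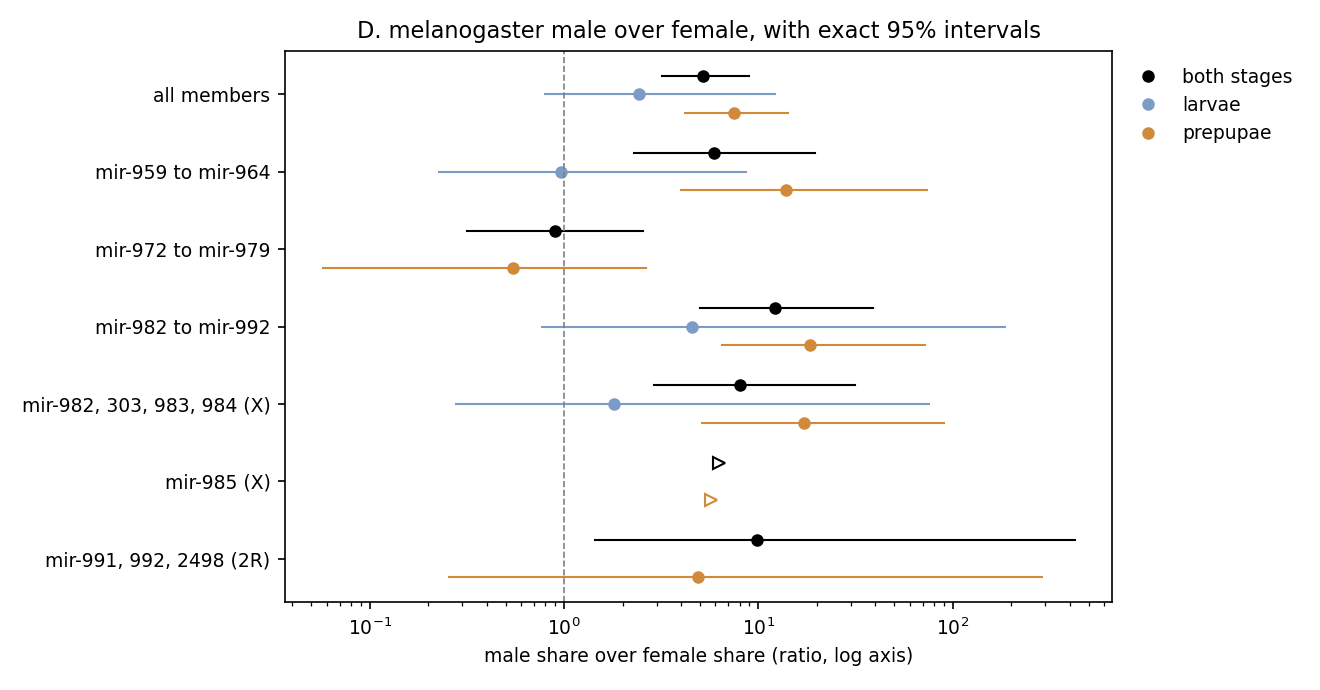
Ratio of the male to the female share of reads in D. melanogaster (log axis) for all members, the 3 clusters of the rule and the 3 loci of the third cluster. Points are ratios and lines exact 95% intervals. Open triangles are folds against the floor of 3 counts where females had 0 reads, and folds below 1 are left out. The interval of mir-972 to mir-979 (0.316 to 2.55) includes 1, while those of the other clusters, with both stages together, lie above 1.

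miR-959-3p had 1 and 12 reads in male larva 1 and 2, 2 and 5 in male prepupa 1 and 2, and, among females, 1 in the prepupa and none in the larva. Its share was higher in each male library than in both females, although male larva 1 (0.00343%) was close to the female prepupa (0.00207%). miR-984-5p had 6 and 1 reads in the male larval libraries, 17 and 2 in the male prepupal ones, and, among females, 1 read in the prepupa and none in the larva. It too did not overlap between the sexes. miR-985-3p had 9 and 5 reads in the male larval libraries, 7 and 0 in the male prepupal ones and 0 in both females, so that male prepupa 2 met the females at 0. miR-991-3p had 7 and 2 reads in the male larval libraries and 0 in both male prepupal ones, while the females had 1 (prepupa) and 0 (larva), so the groups overlapped.

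The remaining arms were thinly read. miR-963-5p had 1 read in male larva 1, 5 in male prepupa 1 and 2 in the female larva, and 0 in the other D. melanogaster libraries. miR-964-5p had 1 read in male larva 1, 2 in male prepupa 1, 1 in male prepupa 2 and 0 in both females. miR-978-3p had 3 and 1 reads in the male larval libraries and none in other D. melanogaster libraries. Reads of miR-982-5p were spread over both sexes, with 2 and 1 in male larvae, 0 and 1 in male prepupae and 2 in the female prepupa. miR-960-3p and miR-979-3p were read in D. melanogaster in the female prepupa only, with 2 reads and 1 read, and miR-961-3p, miR-975-3p and miR-982-3p had 1 read each, in D. simulans. By member, 8 were read in both sexes, 6 in males only and 2 in females only. Of the 6, mir-985 had 21 male reads and each of the others had 5 or fewer.

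In all, 2 of 18 member arms with a D. melanogaster read had every male share above both female shares, against 7.45% of all 188 such arms. Of arms with 20 reads in this species, 15.3% of 85 had this pattern, and the 3 members among them reached 20 reads through the males, so their count is not set against it. The exact two-sided permutation test over 4 male and 2 female libraries cannot go below 0.133. This exact permutation test gave p = 0.133 for miR-959-3p and miR-984-5p, 0.4 for miR-985-3p and 0.8 for miR-991-3p, with adjusted values of 0.267, 0.267, 0.533 and 0.8 over these 4 arms.

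The edgeR quasi-likelihood fit of sex over all 6 D. melanogaster libraries filtered out every member, so none was tested among 58 arms. That fit called 1 arm, 1.72% of those tested, and 0 with the library pool as a replicate block. In the planned fit without a filter, 18 member arms were among 188 tested, and 0 of 188 were called after Benjamini-Hochberg adjustment. Unadjusted p-values under 0.05 fell on 3 members, miR-985-3p, miR-984-5p and miR-959-3p, all higher in males, against 11 of 188 arms (5.85%) in all. The fitted log2 change of miR-984-5p was 4.29 ± 1.89 (SE, adjusted p = 0.722) and that of miR-959-3p 3.79 ± 1.71 (adjusted p = 0.722). For miR-985-3p, with 0 female reads, it depends on a prior count and is 5.24 ± 2.05 (adjusted p = 0.505). Of the 18 member arms 12 had a log2 change above 0, with a median of 1.88, against 48.4% of all arms and a median of −0.16. An arm with male reads and 0 female reads is fitted above 0 at any depth, with a size set by the prior count. Thus miR-2498-5p, with 1 male read, was at 2.39. The 12 of 18 and the median of 1.88 therefore support no direction. From summed reads, with arms at 0 in one sex set at the floor of 3 counts, the median over the 10 arms with more than 3 reads in a sex was 1.14. All of these arms passed that minimum on male reads, and miR-974-5p on female reads as well, so this median describes the choice of arms and supports no direction.

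Between larvae and prepupae no member passed a test. In D. melanogaster males, 2 members entered the edgeR quasi-likelihood fit of 70 arms, and neither was called, against 8.57% of all arms. With the library pool as a replicate block, in the 4 male libraries, 20 of 50 arms were called, but no member passed the filter. Without a filter that block called 22 of 169 arms and 0 of 16 members. In the edgeR quasi-likelihood fit of 70 arms, without the block, miR-984-5p had a log2 change of 2.50 ± 2.20 (prepupae minus larvae, adjusted p = 0.614). The change of miR-959-3p in that fit was −0.17 ± 2.26 (adjusted p = 0.941). Summed reads of miR-984-5p gave a prepupal over larval ratio of 5.43 (2.18 to 15.3), and male prepupa 1 gave 17 of the 19 prepupal reads. Without a filter 0 of 18 members were called, against 3.19% of 188 arms, and 9 of 18 were above 0, against 42% of arms. All members together had 61 reads in male larvae and 49 in male prepupae, shares of 0.155% and 0.249% with a ratio of 1.61 (1.08 to 2.38), yet the 2 prepupal libraries lay on both sides of the second larval one. In the edgeR test of whether sex differed between the stages, 0 of 2 members were called, against 1.43% of 70 arms, and with the replicate block 25 arms were called and neither member.

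Across the males of 3 species, the edgeR stage fit over arms listed in all species held no member, because D. yakuba lists none, and called 2.86% of 35 arms. With own-species or D. melanogaster hairpins and no filter, a choice made after seeing the data, 0 of 21 members were called, against 1.6% of 188 arms.

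The species differed in which members were read. D. melanogaster had reads of 16 members over both sexes and of 14 in its males, D. simulans males of 8 and D. yakuba males of 3. Depth differed as well, with 58934 miRNA reads in D. melanogaster males, 33350 in D. simulans and 26924 in D. yakuba. These numbers of members are not corrected for depth. All D. yakuba counts are reads identical to a D. melanogaster hairpin, and 7 members, mir-984 and mir-985 among them, have no listed D. simulans hairpin and were counted there in the same way. A 0 in those cells means no read of the D. melanogaster sequence. It does not measure an ortholog with another sequence.

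miR-991-3p was the member most read in D. simulans. It had 15 reads in the male larva and 49 and 3 in the prepupal libraries 1 and 2, shares of 0.315%, 0.208% and 0.059%, and at most 0.024% in any D. melanogaster male. How many of all arms had each D. simulans share above every D. melanogaster male was not counted, so the order of these shares supports no difference. The prepupal libraries were made from the same RNA. The interval of the second, 0.0122% to 0.172%, overlapped that of D. melanogaster male larva 1, 0.00965% to 0.0494%. Summed, 67 reads against 9 gave a ratio of 13.2 (6.53 to 30.0). In the planned edgeR fit with own-species or D. melanogaster hairpins, its log2 change was 4.87 ± 1.27 (adjusted p = 0.0397), against 9.52% of 63 arms called. It passed the filter of that fit through its D. simulans reads, so this call among 2 members tested is no support for a difference. In the edgeR fit without a filter the change was 4.47 ± 1.23 (adjusted p = 0.018), the only call among 21 members, against 2.13% of 188 arms. Without the first prepupal library of D. simulans the change was 4.15 ± 1.49 and no longer passed (adjusted p = 0.32). Without male prepupa 1 of D. melanogaster it was 4.64 ± 1.44 (adjusted p = 0.0594), and without the D. simulans larva 7.57 ± 2.13 (adjusted p = 0.0376). In that edgeR fit without a filter 8 of 21 members were above 0 with a median of −2.33, against 30.9% of arms and a median of −1.06, and from summed reads with the floor the median over 11 arms with more than 3 reads in a species was −0.19.

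The index moved with this result, and the library pool did so in part. The larval and the second prepupal library of D. simulans were in pool SDY4, which held no D. melanogaster library. The first prepupal library was in SDY3, with male larva 2 and male prepupa 2 of D. melanogaster. The larval library and the first prepupal library of D. simulans carried the index GACT, which no D. melanogaster male carried. The female prepupa of D. melanogaster, with that index, had 1 miR-991-3p read of 48209. Within the index ACTG, 3 reads in D. simulans prepupae stood against 9 in D. melanogaster male larvae, a ratio of 2.57 (0.448 to 10.3), which includes 1. That comparison changes the stage as well. Within prepupae, 52 reads in D. simulans stood against 0 in D. melanogaster males. This is 11.9-fold higher against the floor, and the exact interval of the ratio begins at 9.35. For all members together the ratio was 1.46 (1.10 to 1.95) over all libraries, 1.05 (0.724 to 1.54) within prepupae, and 1.14 (0.497 to 2.31) within the index ACTG. The parts of the index and the pool were not tested further. Against D. yakuba, with no miR-991-3p read, the fit without a filter gave 7.69 ± 2.09 (adjusted p = 0.0158), against 1.6% of 188 arms, a value that rests on 0 reads identical to the D. melanogaster hairpin. It was no longer called without the first prepupal library of D. simulans or either of 2 D. yakuba libraries, the larva and the first prepupal one. The mir-310 cluster next to it had a share of 0.192% in D. simulans and 0.137% in D. melanogaster males.

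Over all male libraries, the mir-959 to mir-964 cluster ran the other way in D. simulans. Its share was 0.018% (0.0066 to 0.0392) in D. simulans males and 0.056% (0.0385 to 0.0786) in D. melanogaster males, a ratio of 0.321 (0.110 to 0.777). Libraries overlapped: D. simulans had 0, 0.017% and 0.0393%, and D. melanogaster male larva 1 had 0.0103%. Within prepupae the ratio was 0.243 (0.0783 to 0.645). Within the index ACTG, where the stage changes as well, 2 reads in D. simulans stood against 16 in D. melanogaster. That ratio was 0.965 (0.108 to 4.11), which includes 1. The parts of the index and the pool in this cluster were not tested. In D. yakuba the cluster had 25 reads, 0.0929% (0.0601 to 0.137), a ratio of 1.66 (0.945 to 2.87) to D. melanogaster, although only reads of the D. melanogaster sequence could count. miR-959-3p gave 19 of them, 6 in the larva and 13 in the first prepupal library, and miR-964-5p 6. The second prepupal library had 0 member reads of 1423, where the floor of 3 counts is a share of 0.211% and the exact interval reaches 0.259%. Muscle miRNAs took 43.9% of all miRNA reads in D. yakuba males, against 6.45% in D. melanogaster males. Their part in the ratio of 1.66 was not tested.

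miR-984-5p had 26 reads in D. melanogaster males and 0 in either other species, and miR-985-3p 21 and 0. Against the floor of 3 counts this is 4.90-fold and 3.96-fold lower for D. simulans, and 3.96-fold and 3.20-fold lower for D. yakuba, for reads of the D. melanogaster sequence. The exact intervals of the ratios to D. melanogaster reach up to 0.269 and 0.339 for D. simulans, and 0.334 and 0.42 for D. yakuba. No call was made for them by the edgeR fit without a filter. The adjusted p for miR-984-5p was 0.0638 in D. simulans and 0.183 in D. yakuba. For D. yakuba minus D. melanogaster 0 of 21 members were called, against 1.06% of 188 arms, and 3 were above 0, with a median of −2.34, against 33.5% of arms and a median of −0.94. With the floor, over 10 arms chosen in the same way, the median was 0.21, so its sign turned with the treatment of the zeros.

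In D. simulans the mir-983 hairpin was read from the other arm. D. melanogaster had 5 reads of mir-983, all on the 5′ arm, 4 in male larva 1 and 1 in male larva 2. D. simulans had 13, all on the 3′ arm, 11 and 2 in the prepupal libraries 1 and 2. The annotated D. simulans mature miRNA lies on the 5′ arm and had no read. The reads of D. melanogaster all came from larvae and those of D. simulans all from prepupae, so stage and species cannot be told apart for this arm. The 2 hairpins are shown with their most read sequence in capitals, the first from one copy in D. melanogaster (X), the second from D. simulans (X).
dme-mir-983-1: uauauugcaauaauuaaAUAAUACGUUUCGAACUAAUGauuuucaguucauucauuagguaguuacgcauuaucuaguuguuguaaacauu
dsi-mir-983: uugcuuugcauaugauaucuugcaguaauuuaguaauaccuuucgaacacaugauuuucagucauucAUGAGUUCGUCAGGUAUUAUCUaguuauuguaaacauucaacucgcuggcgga

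Where a member had 20 reads in a species, one arm held nearly all of them. In the 4 such pairs, mir-959 of D. melanogaster had 21 of 22 reads on the 3′ arm, mir-984 had 27 of 27 on the 5′ arm, mir-985 had 21 of 21 on the 3′ arm, and mir-991 of D. simulans had 67 of 67 on the 3′ arm. In D. yakuba mir-959 had 19 of 19 on the 3′ arm. At low counts both arms occurred, with 2 and 2 reads for mir-959 and 1 and 1 for mir-982 in D. simulans, and 1 and 1 for mir-2498 in D. melanogaster. Over all hairpins with 20 reads, the median share of the main arm was 96.5% in D. melanogaster.

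**Figure D4:**
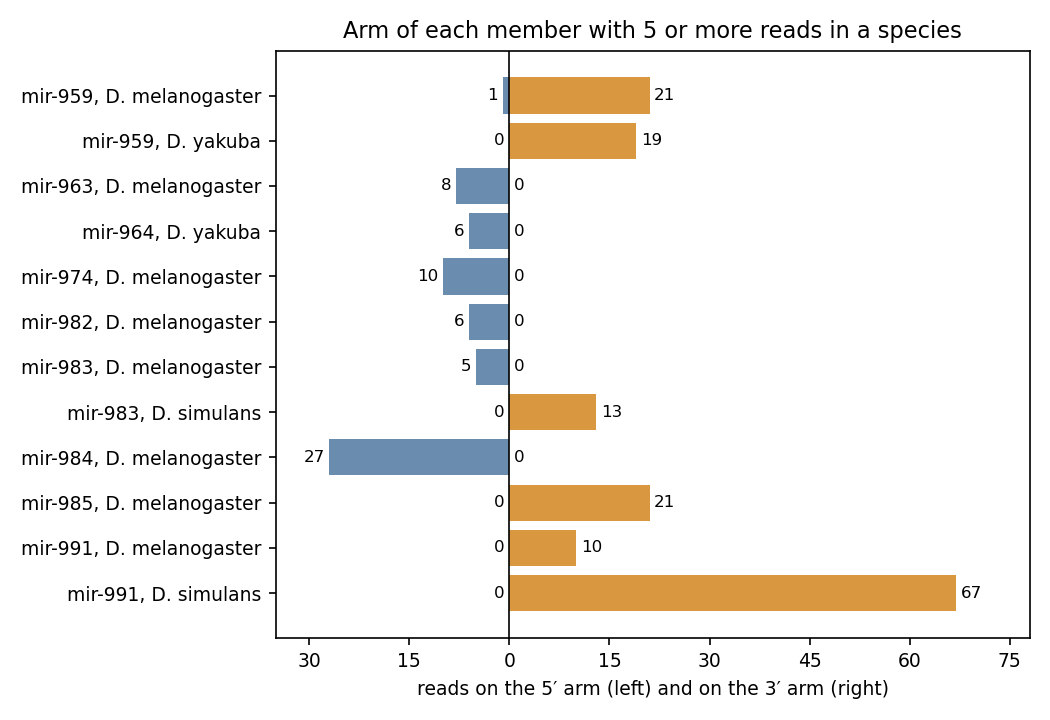
Reads on the 5′ arm (left) and the 3′ arm (right) of each member with 5 or more reads in a species. mir-983 lies on the left in D. melanogaster (5 reads) and on the right in D. simulans (13 reads); mir-959 and mir-991 lie on the right in each species shown.

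The 5′ end, which sets the seed, was fixed in miR-984-5p (27 of 27 reads at the usual start) and miR-985-3p (21 of 21). It was variable in miR-959-3p of D. melanogaster, where 11 of 21 reads (52.4%, 29.8 to 74.3) had the usual start, 4 began 1 base upstream and 6 began 1 base downstream. In D. yakuba 18 of 19 reads (94.7%, 74.0 to 99.9) had the usual start. The median over 82 D. melanogaster arms with 20 reads was 99.2%. All 4 upstream reads came from male larva 2, and the downstream reads from 3 male libraries. miR-963-5p had 4 reads at each of 2 starts 1 base apart. The forms of miR-959-3p at its 3 starts, with the seed in capitals, are these.
miR-959-3p, 1 base upstream: uUUGUCAUcggggguauuauga
miR-959-3p, usual start: uUGUCAUCggggguauuauga
miR-959-3p, 1 base downstream: uGUCAUCGgggguauuaugaaa

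The mature sequences of the members differed between D. melanogaster and D. simulans more often than those of other miRNAs. Over the annotated D. melanogaster mature region aligned to the D. simulans hairpin, 5 of 18 pairs (27.8%) were identical, against 111 of 121 pairs (91.7%) of other miRNAs. The seed was identical in 11 of 18 (61.1%), against 121 of 121. These are annotations and not reads, and copies of 1 miRNA share a sequence: by D. melanogaster hairpin, 5 of 16 were identical and 11 kept the seed. Identical members were mir-959, mir-963 and mir-964 of the 2L cluster and mir-976 and mir-977 on X. All of the 2L and mir-972 to mir-979 pairs kept the seed. Every pair with a changed seed was from the third cluster.

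Counted from 1 at the 5′ end, with the D. melanogaster base first, mir-303 carried U7C and U8A in the seed and an alignment gap, mir-983 carried G8C and mir-982 carried C3U against the copy dsi-mir-982c. The remaining D. simulans copies of mir-982 carried 3 seed changes each. The single D. simulans read of the mir-982 5′ arm is set beside the D. melanogaster form, which had 5 reads, to show this change inside the seed.
miR-982-5p, D. melanogaster: uCCUGGACaaauaugaaguaaau
miR-982-5p, D. simulans: uCUUGGACaaauaucaaguagauu

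This divergence set what could be counted. On the D. melanogaster hairpins alone, the member share of D. simulans males was 0.0176%, against 0.273% (0.22 to 0.335) on the hairpins of its own species.

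**Figure D5:**
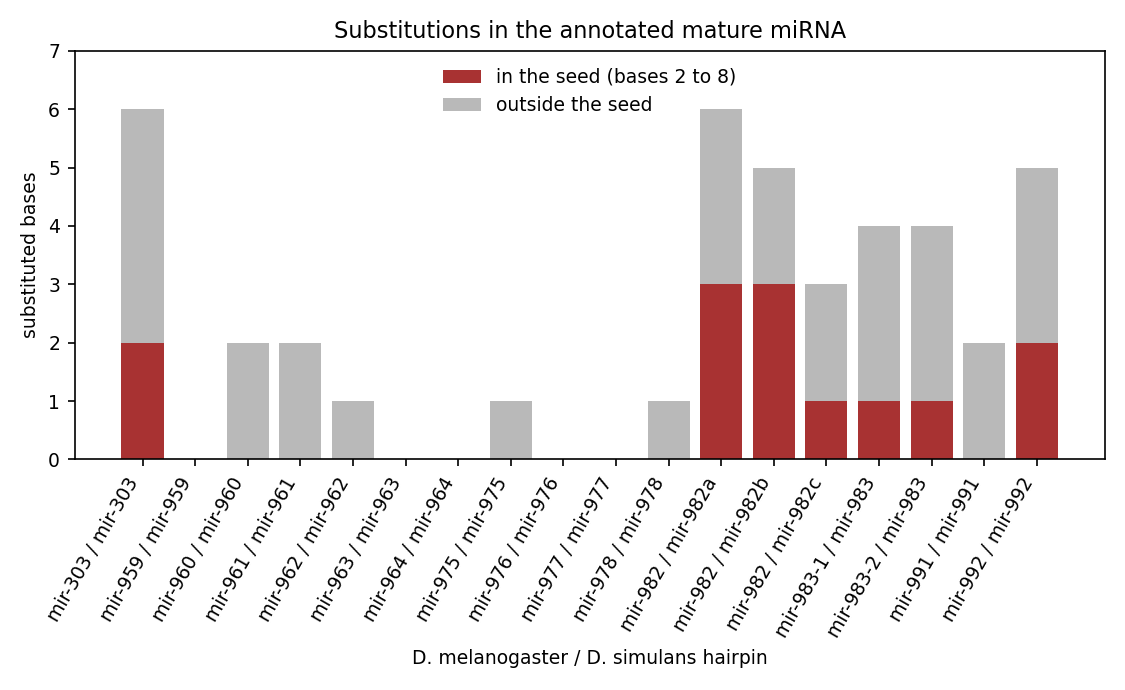
Substituted bases in the annotated mature miRNA between D. melanogaster and D. simulans for each pair of hairpins (x axis), split into the seed, bases 2 to 8 (red), and the rest (grey). Alignment gaps are not drawn. mir-959, mir-963, mir-964, mir-976 and mir-977 have none, and red occurs only in mir-303, mir-982, mir-983 and mir-992.

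By annotated mature sequence, few members shared a seed with another miRNA of D. melanogaster. On bases 2 to 8, 1 of 22 did so, mir-960 with mir-12, against 35 of 147 other miRNAs. The 3 reads of mir-960 lay on its 3′ arm, and their most read forms had other seeds. On bases 2 to 7, 3 of 22 did so, with mir-984 matching let-7 and mir-977 matching mir-967, against 49 of 147. miR-984-5p thus shares its 6-base seed with let-7, the miRNA that accompanies metamorphosis, but differs from it at base 8.

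Markers of other tissues gave the setting of these values. The ovary-rich list (mir-318, mir-989, mir-994) had 0 reads in D. melanogaster males and 1 in females, so 2 of its 3 members were at 0 in females. Muscle miRNAs took 6.45% of reads in D. melanogaster males and 12.6% in females, with libraries from 0.978% to 13.2% and from 6.48% to 13.2%. Their share ran from 14.5% to 23.9% in the male libraries of D. simulans and from 9.49% to 47.3% in those of D. yakuba. These reads are in the denominator of every member share. Nervous system miRNAs ran from 0.0791% to 0.388% in male libraries, with a female larva at 0.530% and a female prepupa at 0.0519%. The early embryo list ran from 0.0332% to 0.854% in male libraries, where male larva 1 gave 249 of 278 reads, and had 0.445% and 0.334% in the females. Neither list thus separated the sexes. The part of these lists in the male excess and in the species ratios was not tested. Across the 12 libraries, which share depth and index with the members, the arms most like the summed members were miR-312-5p (Pearson's r = 0.746), miR-9c-5p (0.651) and miR-31b-5p (0.629), of 99 compared on a log2 scale of normalised counts. miR-312 belongs to the mir-310 cluster.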

How the data were processed

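Small RNA of whole animals was size-selected, joined to adapters with 4-base indexes and sequenced, per the labels. The authors aligned reads to the hairpins of miRBase release 15 with Bowtie 0.12.5, as the file headers (release) and the submitters' processing notes (tool) state. The deposited summary table holds expected counts per arm, with reads divided over loci, and the deposited alignment texts hold whole-number read counts per distinct sequence. Neither is normalised. The 8 columns of 4 libraries that are not among the samples were left out.

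Reads were summed from the alignment texts for each arm: a read on several copies of 1 miRNA counted once, and a read on several miRNAs was divided among them. All 636 member cells of the summary table lay within 1 read of these sums. Shares carry exact Clopper-Pearson intervals and ratios exact conditional binomial ones (SciPy 1.17.1), for counting error only, since reads carry no molecular identifiers. A fold against 0 used a floor of 3 counts over the group.

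Tests used edgeR 4.0.16 (TMM, filterByExpr, quasi-likelihood F test, Benjamini-Hochberg over all arms, threshold 0.05) in R 4.3.3. Libraries made from 1 RNA were summed, except in the fits across species with a replicate block, where they entered singly. The code was tested on simulated counts. Nothing says that RNA samples came from separate cultures, so p-values reflect only the spread among them, which may be technical. Numbers 1 and 2 of the D. melanogaster males go with the library pool named in the labels. Same-numbered deviations of larvae and prepupae correlated with r = 0.58 over 85 arms, so a block on the replicate number was an alternative. Among D. melanogaster libraries this block is the pool, but across species the number does not match the pool. Alternatives included RLE scaling, DESeq2 1.42.0, no filter, hairpins in place of arms and each library left out. Every member is accounted for, and arms with 20 reads over 12 libraries have their values in every library. The others that are named were chosen after their values were seen. Members and lists were chosen with earlier results of these data known. Sequences of members on 2R are not reported here.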

Additional observations from a re-analysis of the deposited data

How the results depend on the processing

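Many planned edgeR and DESeq2 fits tested no member (among them the main fits of sex, of species and of stage across species), so that 0 members called there says nothing. Where members were tested, D. simulans minus D. melanogaster on own-species or D. melanogaster hairpins called 1, miR-991-3p, which passed the filter through its D. simulans reads. Fitted sex changes without a filter crossed 0 between settings for miR-991-3p (−2.45 to 4.51) and miR-963-5p (−3.38 to 4.86). They also crossed 0 for miR-303-5p (−4.28 to 2.84), miR-974-5p (−1.72 to 3.14), miR-977-3p (−2.25 to 1.34) and miR-982-5p (−0.27 to 3.14). Without a filter on those hairpins, an alternative chosen after seeing the data, D. simulans minus D. melanogaster also called 1, as did D. simulans minus D. yakuba. With each library left out of that fit the number was 0 to 1. With the replicate block and no filter, 0 of 18 members were called for sex, 0 of 16 for stage in D. melanogaster males and 0 of 18 for sex by stage; in the species fits the block tested no member. Among all arms the block with the filter moved the calls from 6 to 20 for stage in D. melanogaster males and from 1 to 25 for sex by stage. With 1 library left out, calls among all arms ran from 0 to 7 for stage, 0 to 1 for sex, 0 to 3 for sex by stage, 2 to 6 for D. simulans minus D. melanogaster, 0 to 2 for D. yakuba minus D. melanogaster, 2 to 4 for D. simulans minus D. yakuba and 0 to 4 for stage across species. DESeq2 called 4 arms for D. yakuba minus D. melanogaster, where edgeR called 0 of 44 arms with 9 at an unadjusted p under 0.05.

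The male over female ratio of all members ran from 2.94 (without the female prepupa) to 6.93 with 1 library left out, and that of mir-959 to mir-964 from 1.32 (without the female prepupa) to 10.7. Taking the 3 most read miRNAs out of the denominator raised the shares by construction, to 0.271% in D. melanogaster males, 0.0685% in females, 0.655% in D. simulans and 0.276% in D. yakuba. With 1 library left out, the shares ran from 0.153% to 0.249% in D. melanogaster males and from 0.0332% to 0.0635% in females. In D. yakuba they ran from 0.0776% to 0.155%. D. simulans had 0.0176% on D. melanogaster hairpins. The minimum of 20 reads left 4 pairs of member and species for arm usage and 4 for the 5′ end, a minimum of 10 left 8 and 8, and one of 50 left 1 and 1. At these depths a count of 0 in a library allows up to 3 reads.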
